A study of Mus musculus with 16 samples.

Results

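Eph receptors are receptor tyrosine kinases that bind ephrins, ligands held on the membrane of neighbouring cells, so that signals pass in both directions at a cell contact. In the intestinal crypt, Eph receptors of the B class and B-type ephrins keep dividing and differentiated cells apart, with the receptors high near the crypt base and ephrin-B1 higher towards the villus. EphB4, whose ligand is ephrin-B2, is best known from venous endothelium and is also made by the intestinal epithelium. The genes described here are the Eph family members found by symbol in a deposited list of genes that differed after loss of Ephb4, namely the receptors Ephb4 and Epha1 and the ligand Efnb1. They are 3 of the 2438 genes in that list and 3 of 22 mouse Eph receptors and ephrins. The share listed was 14.3% of 14 Eph receptors and 12.5% of 8 ephrins. This is close to the 14.8% listed of all 16488 genes that the authors adjusted over. The other 19 family members were not analysed here.

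The libraries were messenger RNA sequencing of duodenal epithelium, 1 library per sample, in 2 genotypes. The flox group (n = 9) was Ephb4 fl/fl, with both Ephb4 alleles flanked by recombination sites. The KO group (n = 7) was Ephb4-IKO, a conditional knockout in intestinal epithelial cells. Both groups were put on a high fat diet (HFD) at 8 weeks of age and stayed on it for 19 weeks. The sources used here give no recombinase, deleted exons, strain or sex. They count 9 flox and 7 KO mice, as many as there are libraries, and describe the material both as duodenal epithelium and as proximal small intestine.

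Values are normalised read counts, that is reads divided by a size factor for each library, and each library held between 3592468 and 5316273 reads over the listed genes. The list itself was chosen by the authors on these same libraries at an adjusted p under 0.05. It holds 14.8% of the 16488 genes they adjusted over, 7.81% as lower and 6.97% as higher in KO, so no test here is independent of that choice. Of 15 markers of intestinal epithelium, 6 were listed, with summed normalised counts of 269054 to 396550 in flox and 191468 to 271769 in KO, and all 6 were lower in KO. Of 69 markers of endothelium, stroma, lymphocytes, mast cells and macrophages, 12 were listed and all were higher in KO. Their mean log2 level over the 11 with enough reads was 5.23 to 6.45 in flox and 5.81 to 7.42 in KO, and KO replicate 1 was the highest. Since listed genes were chosen on genotype, this level is tied to genotype, and a fit with it as a covariate cannot tell them apart. The part of these markers in the results was not tested, beyond such fits given below. Another set of libraries stood apart, since 5 flox libraries (replicates 4, 6, 7, 9 and 10) held 6511 to 134908 normalised counts of 17 exocrine pancreas genes, against 375 to 475 in the other 4 flox libraries and 336 to 1631 in KO. The members' differences between genotypes are therefore given with and without them, while levels per kilobase, correlations and the overlapping genes are given over all 9 flox libraries.

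The 3 genes lie on different chromosomes of GRCm38. Ephb4 (ENSMUSG00000029710) spans chr5:137350109-137378669 on the plus strand and has 17 exons in its longest GENCODE M21 transcript. Epha1 (ENSMUSG00000029859) spans chr6:42358487-42373268 on the minus strand, with 18 exons. Efnb1 (ENSMUSG00000031217) spans chrX:99136130-99148991 on the plus strand, with 5 exons. The 250 bases before each RefSeq start (GRCm38.p6) are printed because all 3 transcripts were lower in KO. They were searched on both strands for 4 motifs. These were the GC box GGGCGG, the motif CCAAT bound by NF-Y, the core CTTTGA bound by TCF and LEF factors of Wnt signalling, and the letters TTTAT found in sites of the CDX factors. None of the motifs overlaps another here, and matches on either strand are in capitals.
Ephb4 chr5:137349859-137350108, plus strand: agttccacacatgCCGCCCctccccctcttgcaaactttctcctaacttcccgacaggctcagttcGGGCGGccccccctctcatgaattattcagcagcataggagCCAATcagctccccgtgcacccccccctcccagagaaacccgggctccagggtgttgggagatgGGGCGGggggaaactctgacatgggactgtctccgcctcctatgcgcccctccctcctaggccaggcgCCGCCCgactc
Epha1 chr6:42373269-42373518, minus strand: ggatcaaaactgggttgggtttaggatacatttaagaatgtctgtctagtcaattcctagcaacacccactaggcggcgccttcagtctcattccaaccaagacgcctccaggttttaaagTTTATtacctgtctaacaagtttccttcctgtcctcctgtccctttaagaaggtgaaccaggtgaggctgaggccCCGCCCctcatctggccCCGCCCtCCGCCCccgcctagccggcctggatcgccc
Efnb1 chrX:99135811-99136060, plus strand: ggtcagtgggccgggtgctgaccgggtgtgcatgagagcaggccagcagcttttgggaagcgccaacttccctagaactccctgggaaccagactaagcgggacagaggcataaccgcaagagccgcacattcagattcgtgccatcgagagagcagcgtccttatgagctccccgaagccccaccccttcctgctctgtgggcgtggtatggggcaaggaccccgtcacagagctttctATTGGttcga

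GGGCGG occurred in 32.7% of 32851 RefSeq promoter windows of this length, and these 3 held it 4 times (Ephb4), 3 times (Epha1) and not at all (Efnb1). The motif CCAAT, present in 33.8% of all windows, was found once each before Ephb4 and Efnb1. The motif TTTAT, present in 37.3%, was found once before Epha1, and the motif CTTTGA, present in 13.8%, in none of the 3. The windows held 12, 9 and 13 CpG sites for Ephb4, Epha1 and Efnb1, against a median of 6 over all windows. The search describes letters and shows no binding.

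Ephb4, the targeted receptor, was lower in every KO library than in any flox library. Flox replicates 1 to 7, 9 and 10 held 102.7, 143.5, 135.8, 161.8, 230.9, 287.5, 353.8, 336.0 and 143.0 normalised counts. KO replicates 1 to 5, 7 and 8 held 84.7, 23.3, 37.3, 28.5, 25.7, 29.2 and 27.2. The KO libraries other than replicate 1 lay close together, while flox replicates 5, 6, 7 and 9 stood at 230.9 or more and the other flox libraries at 161.8 or less. The genotypes did not overlap, a pattern that 5.33% of all 2438 listed genes showed in the lower direction and 7.26% in either direction.

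The KO mean was 17.4% of the flox mean (36.6 ± 21.7, SD, n = 7, against 210.5 ± 94.4, SD, n = 9). In limma the log2 difference was -2.51 ± 0.29 (SE), with an adjusted p of 0.000115 over the 16488 genes. The two-sided exact permutation p was 8.74e-05, the smallest that the 11440 splits can give. In the same limma fit 820 of the 2339 listed genes fitted were called lower and 449 higher. These calls make up 4.97% (lower) and 7.7% (either direction) of the 16488 genes. The unlisted genes were not fitted and were given a p of 1, so they could not be called. Without KO replicate 1 the KO mean was 28.5 ± 4.77 (SD), and Ephb4 was 7.38-fold lower. Ephb4 rested on 25 to 117 reads per KO library and 93 to 370 per flox library. For KO replicate 2 the exact 95% Poisson interval ran from 15.1 to 34.4 normalised counts, and for KO replicate 1 from 70.1 to 101.5, so replicate 1 lay above the other KO libraries by more than counting error. These intervals cover counting error only. Reads from cells other than epithelium and from exons outside the deleted part are counted too, and in bulk RNA fewer cells of a type and less RNA per cell cannot be told apart.

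Among the 1288 listed genes that were lower, 2.25% had a larger fall than Ephb4 in the authors' deposited table. Of those 29 genes, 17 stood on the exocrine pancreas list. That list is not complete, since the others included Amy2a1, Amy2a3 and Amy2b, relatives of Amy2a5, which is on it. The authors' adjusted p of Ephb4 was the 9th smallest of the whole table. Ephb4 was the most variable of the 3 genes among flox libraries, with a coefficient of variation of 44.8%, against 8.07% for Epha1 and 15.6% for Efnb1. The 291 listed genes with a mean within 1.5-fold of that of Ephb4 had a median of 20.7%, and counting error alone would give 6.92%. The 5 flox libraries with pancreatic transcripts held 256.4 ± 98.2 (SD) and the other 4 held 153.2 ± 54.8. Against those 4 flox libraries alone Ephb4 was still called lower in limma, at a log2 difference of -2.11 and an adjusted p of 0.0352.

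**Figure D1:**
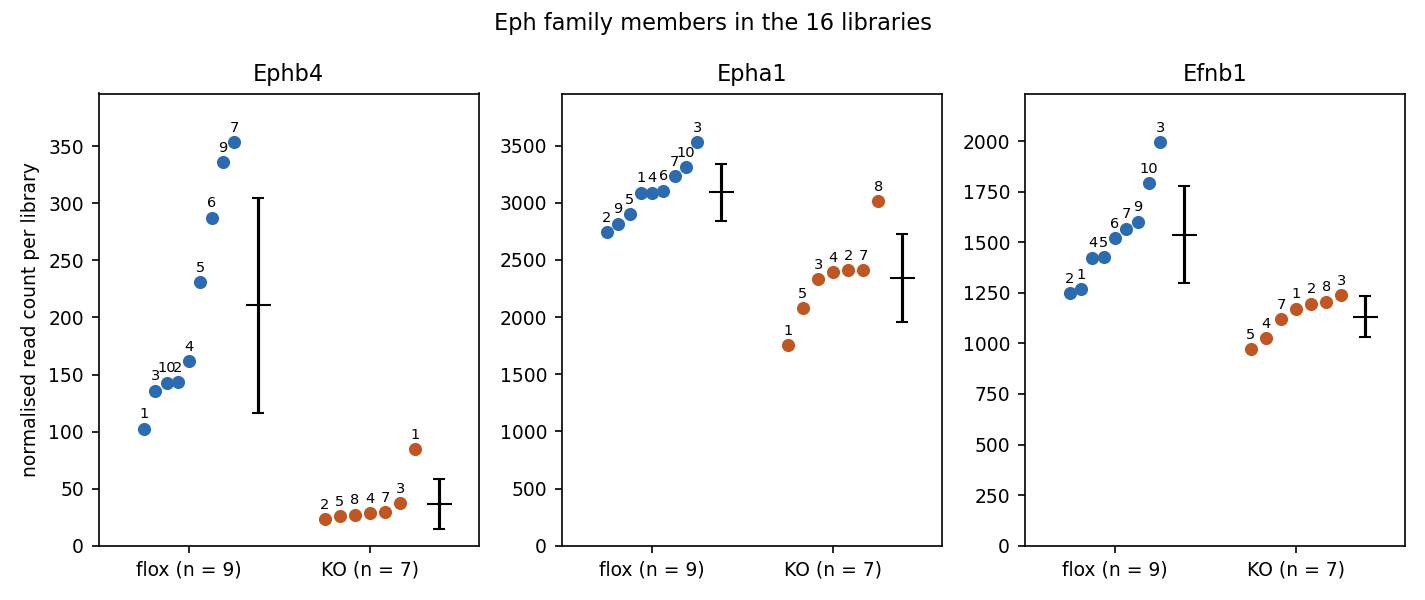
Normalised read counts of Ephb4, Epha1 and Efnb1 (vertical axes, each from 0) in the 9 flox and 7 KO libraries; each point is a library with its replicate number, and the black bars are mean ± SD. Ephb4 and Efnb1 do not overlap between the genotypes, whereas KO replicate 8 lies within the flox range of Epha1.

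Epha1, a receptor of the A class that epithelia express, was the most abundant of the 3 genes and 1.32-fold lower in KO. Flox replicates 1 to 7, 9 and 10 held 3088, 2743, 3532, 3089, 2898, 3105, 3232, 2816 and 3313 normalised counts. KO replicates 1 to 5, 7 and 8 held 1755, 2409, 2332, 2393, 2077, 2411 and 3013. KO replicate 8 exceeded 3 flox libraries, and the other KO libraries lay below all of them. The means were 3091 ± 250 (SD, n = 9) and 2341 ± 382 (SD, n = 7). The limma log2 difference was -0.41 ± 0.09 (SE) with an adjusted p of 0.0136, and the two-sided exact permutation p was 0.00035 (4 of 11440 splits). KO replicate 1, which had the highest Ephb4 of the KO group, had the lowest Epha1 of all 16 libraries. Without it the log2 difference was -0.35, again called, with an adjusted p of 0.0239.

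Efnb1, the gene of ephrin-B1, a transmembrane ligand of EphB receptors on the X chromosome, was 1.36-fold lower in KO. Flox replicates 1 to 7, 9 and 10 held 1268, 1248, 1996, 1424, 1426, 1521, 1567, 1601 and 1792 normalised counts. KO replicates 1 to 5, 7 and 8 held 1172, 1196, 1238, 1025, 972, 1119 and 1207. No KO library reached the lowest flox library, but the gap was narrow. KO replicate 3 stood at 1238 with a 95% Poisson interval of 1170 to 1309, which includes the 1248 of flox replicate 2. The means were 1538 ± 240 (SD, n = 9) and 1133 ± 99.9 (SD, n = 7), the limma log2 difference -0.43 ± 0.09 (SE) with an adjusted p of 0.0132, and the two-sided exact permutation p 0.00035 (4 of 11440 splits). Flox replicates 3 and 10 were the highest in Efnb1 and also in Epha1.

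The falls of Epha1 and Efnb1 were of the size usual for abundant listed genes. Among the 768 listed genes whose mean reached 1000 normalised counts, 712 were lower, with a median log2 fold change of -0.36 among the lower ones in the authors' deposited table, where Epha1 had -0.40 and Efnb1 -0.44. Ranked by fall among the 1288 lower genes, Epha1 was at place 523 and Efnb1 at place 413. Ephb4 lay in the range of 50 to 200, where 82 of 509 listed genes were lower and 427 higher. The median limma log2 difference over the 2339 listed genes whose mean reached 10 was -0.25, and relative to it Ephb4, Epha1 and Efnb1 stood at -2.26, -0.16 and -0.18. TMM scaling over the listed genes raised that median by 0.14, and the values relative to it were again -2.26, -0.16 and -0.18. Quantile normalisation raised it by 0.26 and left Epha1 and Efnb1 at -0.10 and -0.11 relative to it, while Ephb4 stood at -3.12.

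Levels of different genes were compared per kilobase of exon, since the transcripts differ in length. In all 16 libraries the order was Epha1, then Efnb1, then Ephb4. Mean levels in flox were 786.8 normalised counts per kilobase for Epha1, 445.6 for Efnb1 and 45.4 for Ephb4, and in KO they were 596.1, 328.1 and 7.88. The ratio of Epha1 to Efnb1 had a median of 1.79 in flox (1.55 to 2.14) and 1.88 in KO (1.32 to 2.19), so the ranges of the 2 genotypes overlapped. The ratio of Efnb1 to Ephb4 had a median of 11.7 in flox (5.95 to 19.8) and 50.8 in KO (18.6 to 68.9). KO replicate 1 alone had a ratio of Efnb1 to Ephb4 within the flox range.

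Ephb4 followed genes of dividing cells from library to library. After the mean of its genotype was taken off each value, its 5 closest genes over the 16 libraries were Prmt3 (r = 0.92), Dtymk (0.90), Mcm7 (0.90), Fignl1 (0.89) and Stmn1 (0.89). Prmt3 methylates a ribosomal protein, Dtymk makes a precursor of thymidine triphosphate, Mcm7 is part of the replication helicase, and Stmn1 destabilises microtubules. All 5 were higher in KO, whereas Ephb4 was lower. Among the most opposite was Tbc1d20 (r = -0.90), which acts on Rab proteins and was lower in KO. The 14 listed proliferation genes, among them Mki67 and Mcm7, had a median r of 0.80 with Ephb4 (0.56 to 0.90). All 2338 other genes had a median of -0.01, and the 11 non-epithelial markers had 0.16. The libraries share depth scaling, so these coefficients are descriptions and carry no p.

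The mean log2 level of those 14 genes was taken as a measure after the data were seen, and Mcm7 is in it, so its relation to Ephb4 restates the pattern above and is given with no p. In flox the level ran from 5.96 to 7.53, and its Pearson correlation with Ephb4 was 0.92 and Spearman's coefficient 0.93 over the 9 libraries. Without flox replicates 1 and 9, the 2 farthest from the median, r was 0.86. In KO the level ran from 7.16 to 8.30, r was 0.86 and Spearman's coefficient 0.64 over the 7 libraries, and r was 0.85 without KO replicates 1 and 4. The 14 are the listed ones of 20 proliferation genes, and all were listed as higher in KO. The higher level in KO was therefore fixed by that choice, while Ephb4 was lower in KO. With this level as a covariate the log2 difference of Ephb4 was -3.51 ± 0.21 (SE). The level is tied to genotype by the choice of genes, so this fit cannot tell them apart.

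**Figure D2:**
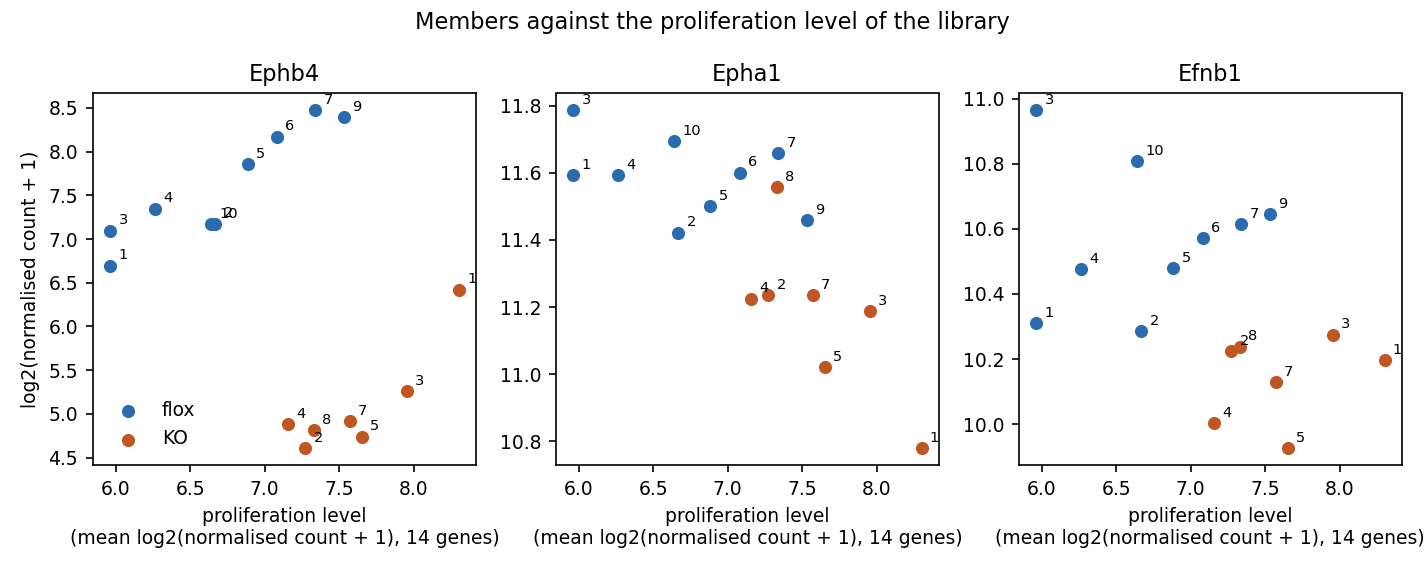
log2(normalised count + 1) of each member (vertical) against the mean of the same quantity over 14 listed proliferation genes (horizontal), 1 point per library with its replicate number, flox in blue and KO in orange. Ephb4 rises with the proliferation level in flox (r = 0.92), with the KO libraries lower at the same level; Epha1 (r = -0.43 in flox) shows no such rise.

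Epha1 varied with other genes. Its 5 closest were the proprotein convertase Pcsk7 (r = 0.91), the integrin subunit Itga3 (0.90), Tom1l2 (0.87), the sterol-binding membrane protein Stard3 (0.85) and the butyrophilin-like gene Btnl1 (0.84), all lower in KO. The most opposite were the ribosomal protein gene Rpl17 (r = -0.86) and the immunoglobulin light chain segment Igkv8-30 (r = -0.83), both higher in KO. The median r of Epha1 with the 14 proliferation genes was -0.46 and with the 6 epithelial markers 0.45. Efnb1 was closest to Tlnrd1 (r = 0.82), the butyrophilin-like gene Btnl6 (0.80), Arl4d (0.80), Gatad1 (0.80) and Gas2l1 (0.80), all lower in KO. The transcription factor Rfx3 (r = -0.87) and Zcchc10 (r = -0.82), both higher in KO, were the most opposite. Its median r with the proliferation genes was 0.08.

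The 3 genes did not vary together in a way that passed a test. Epha1 and Efnb1 had r = 0.74 in flox (exact permutation p = 0.0229, adjusted 0.103, n = 9), with a Spearman coefficient of 0.70 (exact permutation p = 0.0433, adjusted 0.26). Without flox replicates 2 and 3 r was 0.32, so the relation rested on those libraries, and in KO r was 0.25 (exact permutation p = 0.569, adjusted 0.718, n = 7), with a Spearman coefficient of 0.29 (exact permutation p = 0.556, adjusted 0.794). Ephb4 and Epha1 had r = -0.71 in KO (exact permutation p = 0.125, adjusted 0.32, n = 7), with a Spearman coefficient of -0.39 (exact permutation p = 0.396, adjusted 0.794), and r became 0.14 without KO replicates 1 and 8. Epha1 was lower in flox libraries with more non-epithelial transcripts (r = -0.79, exact permutation p = 0.0101, adjusted 0.0667, n = 9), with a Spearman coefficient of -0.70 (exact permutation p = 0.0433, adjusted 0.26), and r was -0.75 without flox replicates 2 and 7. None of these passed the adjustment over the 18 relations computed.

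A gene on the opposite strand overlaps each receptor gene. Epha1 shares 1727 bases, 236 of them exonic in both genes (6.01% of Epha1 exon bases), with Zyx, which codes for zyxin, a focal adhesion protein. The sources used here do not state whether reads were counted by strand, so reads there cannot be assigned with certainty. Zyx held 3010 ± 235 normalised counts in flox (SD, n = 9) and 2345 ± 317 in KO (SD, n = 7). Its limma log2 difference was -0.37 ± 0.08 (SE) with an adjusted p of 0.0149. The genotypes did not overlap, as for 5.33% of the 2438 listed genes in the lower direction, but the gap was narrow. KO replicate 8 held 2699 and flox replicate 7 held 2734. The r of Zyx with Epha1 after genotype means were taken off was 0.79. Both genes thus fell by a similar factor, 1.28-fold for Zyx and 1.32-fold for Epha1.

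Ephb4 and Zan, the gene of the sperm protein zonadhesin, end tail to tail and share 33 exonic bases (0.711% of Ephb4 exon bases). Zan was the opposite of Ephb4 between genotypes, at 62.9 ± 26.9 in KO (SD, n = 7) against 34.9 ± 16.9 in flox (SD, n = 9). In the authors' deposited table Zan had an adjusted p of 0.0428 and a log2 fold change of 0.85, while in limma its adjusted p was 0.101. Within genotypes Zan followed Ephb4, with r = 0.83 over the 16 libraries after genotype means were taken off. This was not particular to Zan, since the 14 listed proliferation genes had a median r of 0.80 with Ephb4 (0.56 to 0.90). Flox replicates 7 and 9, the highest in Ephb4, held the most Zan of the flox group (68.8 and 50.9), and KO replicate 1 held the most of all (110.8).

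**Figure D3:**
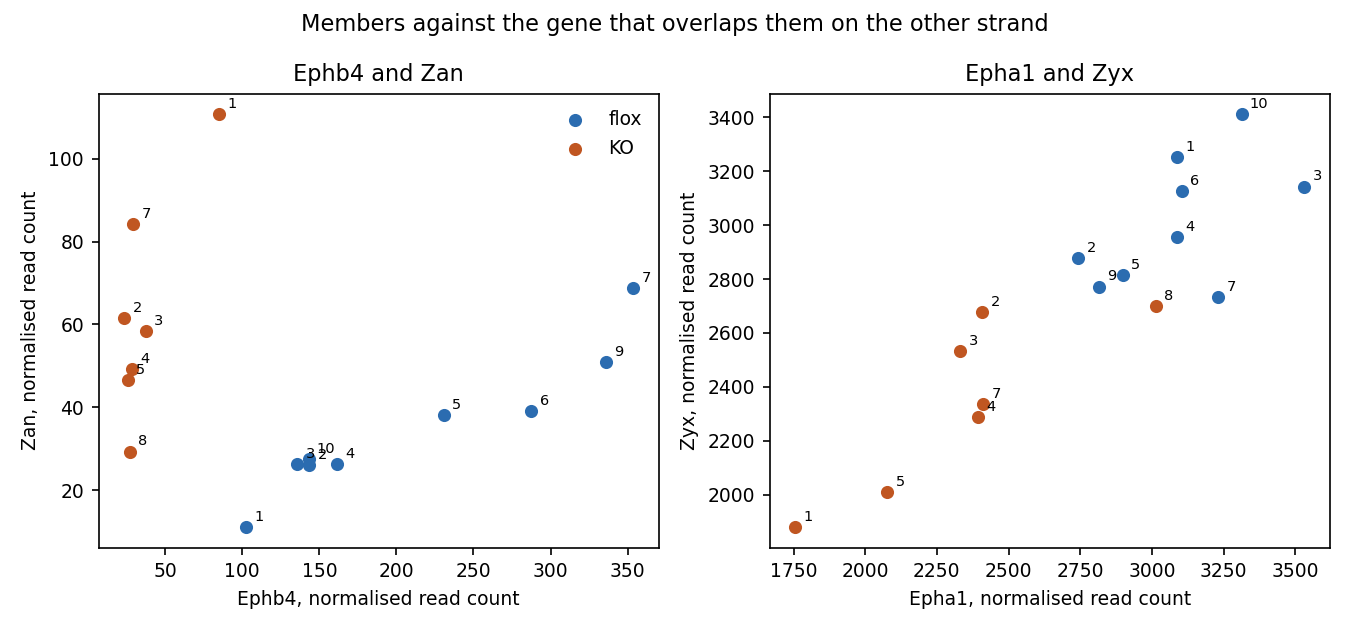
Normalised read counts of Zan against Ephb4 and of Zyx against Epha1, 1 point per library with its replicate number, flox in blue and KO in orange. Zan rises with Ephb4 among flox libraries while the KO libraries, with less Ephb4, hold 29.3 to 110.8. Zyx tends to rise with Epha1 (r = 0.79 after genotype means were taken off), and KO replicate 1 is the lowest in both. Flox replicate 7 departs from this, with 3232 of Epha1 and the least Zyx of the flox group (2734).

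Listed genes within 1 Mb were few for each member. Near Ephb4, 8 of 65 annotated coding genes (12.3%) were listed, close to the 14.8% of all tested genes. With the microRNA gene Mir8116, 6 of the 9 listed were lower and 3 higher. The lower ones included Gnb2, a G protein subunit (1.22-fold), Ap1s1, a clathrin adaptor subunit (1.35-fold), and Nyap1 (1.56-fold). Apart from Zan and Mir8116, the higher one was Mcm7 (1.58-fold). Near Epha1, 2 of 53 coding genes were listed, Zyx and the pancreatic protease Prss2, besides the T cell receptor constant region gene Trbc2. Near Efnb1, 1 of 7 was listed, the ubiquitin ligase gene Pja1, which was 1.24-fold lower.

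Genes that act with Eph receptors were compared from 7 lists of 110 genes in all, of which 21 were listed (19.1%), 17 lower and 4 higher. The share listed compares with 14.8% of all 16488 genes, of which limma called 7.7%. As lower, 17 of the 110 were listed, against 7.81% of all genes. As higher, 4 of the 110 were listed, against 6.97% of all genes. The 3 members are among the 21 and all are lower. They were found by symbol in the list, so their place in these counts was fixed by that choice. Most of the 17 had means above 1000 normalised counts, where 712 of 768 listed genes were lower. Of 26 adaptors and kinases of forward signalling 6 were listed, 5 lower and 1 higher, and limma called 4 lower and 1 higher. Src, the non-receptor tyrosine kinase activated by many Eph receptors, fell from a mean of 3646 ± 577 (SD, n = 9) in flox to 2608 ± 276 (SD, n = 7) in KO. Its limma log2 difference was -0.47 ± 0.10 (SE) with an adjusted p of 0.0104. Its genotypes did not overlap, a pattern that 5.33% of the 2438 listed genes showed in the lower direction. Inppl1, the lipid phosphatase SHIP2 that binds Eph receptors, fell 1.33-fold, and the adaptors Shc1 and Grb2 fell 1.18-fold and 1.16-fold. With the non-epithelial level as a covariate the log2 difference of Inppl1 moved from -0.41 to -0.18 and that of Shc1 from -0.24 to -0.14. It moved less for Src (-0.47 to -0.40) and Grb2 (-0.22 to -0.20). Mapk3, the kinase ERK1, was 1.16-fold lower with an adjusted p of 0.0565 in limma. Its log2 difference moved from -0.23 to -0.05 with that covariate. Sla, an adaptor of lymphocytes, rose 1.99-fold, and its log2 difference was -0.29 with the non-epithelial level as a covariate. Its cell source was not tested. The median log2 difference of the 6 was -0.23, against -0.25 over all listed genes.

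None of 15 genes for ephrin cleavage and reverse signalling was listed, against 14.8% of all 16488 genes. Genes outside the list have no values here, so they cannot be called unchanged.

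Of 15 junction and adhesion partners 6 were listed (40%), all lower, and limma called 3 of them. Of all 16488 genes 7.81% were listed as lower, and limma called 4.97% lower. The 6 had means above 1000 normalised counts, where 712 of 768 listed genes were lower. The 3 called were Jup, the gene of plakoglobin, which fell 1.24-fold, Cldn3 and the tight junction scaffold Cgn. With the non-epithelial level as a covariate the log2 difference of Cldn3 moved from -0.33 to -0.086 and that of Cgn from -0.30 to -0.20. That of Jup moved from -0.31 to -0.24. The median of the 6 was -0.30. Of 15 crypt receptors and Wnt targets 3 were listed (20%, against 14.8% of all 16488 genes). Sp5, a Wnt target, fell 1.52-fold (adjusted p = 0.0221 in limma), with a log2 difference of -0.58 that was -0.21 with the non-epithelial level as a covariate and -0.31 without the 5 flox libraries with pancreatic transcripts. Tcf7 rose 2.30-fold and the adhesion receptor Cd44 rose 1.82-fold, and lymphocytes express both. With the non-epithelial level as a covariate their log2 differences were -0.13 and -0.05. Lymphocyte markers are part of that level, and the cell source of Tcf7 and Cd44 was not tested. Without KO replicate 1 limma called none of these 3 and 1 of the junction genes, in a fit where 2225 of the 2339 listed genes had an unadjusted p under 0.05. Quantile normalisation turned all 6 junction genes, and Grb2, Shc1 and Mapk3, to above 0. With the non-epithelial level as a covariate, and also without the 5 flox libraries with pancreatic transcripts, limma called none of the 18 listed pathway genes other than the 3 members. Under these settings 626 and 1703 of the 2339 listed genes had an unadjusted p under 0.05.

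**Figure D4:**
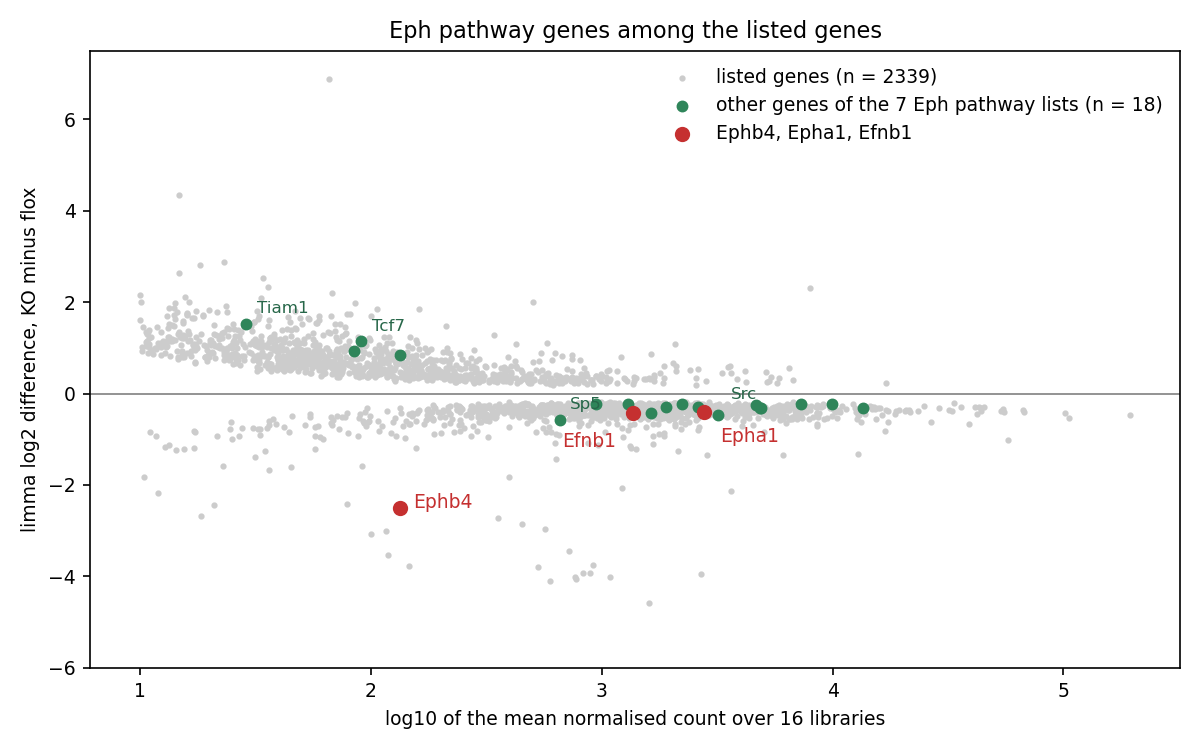
limma log2 difference, KO minus flox (vertical), against log10 of the mean normalised count (horizontal) for 2339 listed genes in grey, with the members in red and 18 other genes of the 7 Eph pathway lists in green. Ephb4 at -2.51 lies far below the listed genes of its abundance, and Epha1 at -0.41 and Efnb1 at -0.43 lie within the band of abundant lower genes.

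The calls of the members differed in how far they held. Ephb4 was called lower in limma, edgeR (adjusted p = 0.0011) and DESeq2 (adjusted p = 1.39e-12) and after removal of any 1 library. Of the 16488 genes edgeR called 4.99% lower and 8.05% in either direction, and DESeq2 7.52% and 12.8%. Both were fitted on 2339 listed genes alone. Of these edgeR called 823 lower and 505 higher, and DESeq2 called 1240 lower and 872 higher. Epha1 and Efnb1 were also called by edgeR (adjusted p = 0.0167 and 0.0154) and DESeq2 (adjusted p = 0.000813 and 0.000471) and after removal of any 1 library. With the non-epithelial level as a covariate the differences were -2.79 for Ephb4, which was called (adjusted p = 0.0234), and -0.24 for Epha1 and -0.23 for Efnb1, which were not (adjusted p = 1 for both). That level rests on listed genes that were all higher in KO, so this fit cannot separate it from genotype. It called 7 listed genes in all, against 1269 in the main fit. Without the 5 flox libraries with pancreatic transcripts Epha1 and Efnb1 stood at -0.40 and -0.37, and neither was called (adjusted p = 0.169 and 0.201).

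Transcript GC content moved with direction among all listed genes, with a median of 54.7% in the lower and 45.4% in the higher genes. Ephb4 (58.4%), Epha1 (55.2%) and Efnb1 (58.2%) were all above the median of 51.2% over listed genes. A trend with GC was fitted in each library over listed genes alone, so it takes up part of the genotype difference. Taking it off moved the median log2 difference over those genes from -0.25 to -0.006. With a GC trend taken off each library the log2 difference was -2.11 for Ephb4, -0.20 for Epha1 and -0.05 for Efnb1, and of these Ephb4 alone was called (limma adjusted p = 0.00213, against 0.346 and 1).

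**Figure D5:**
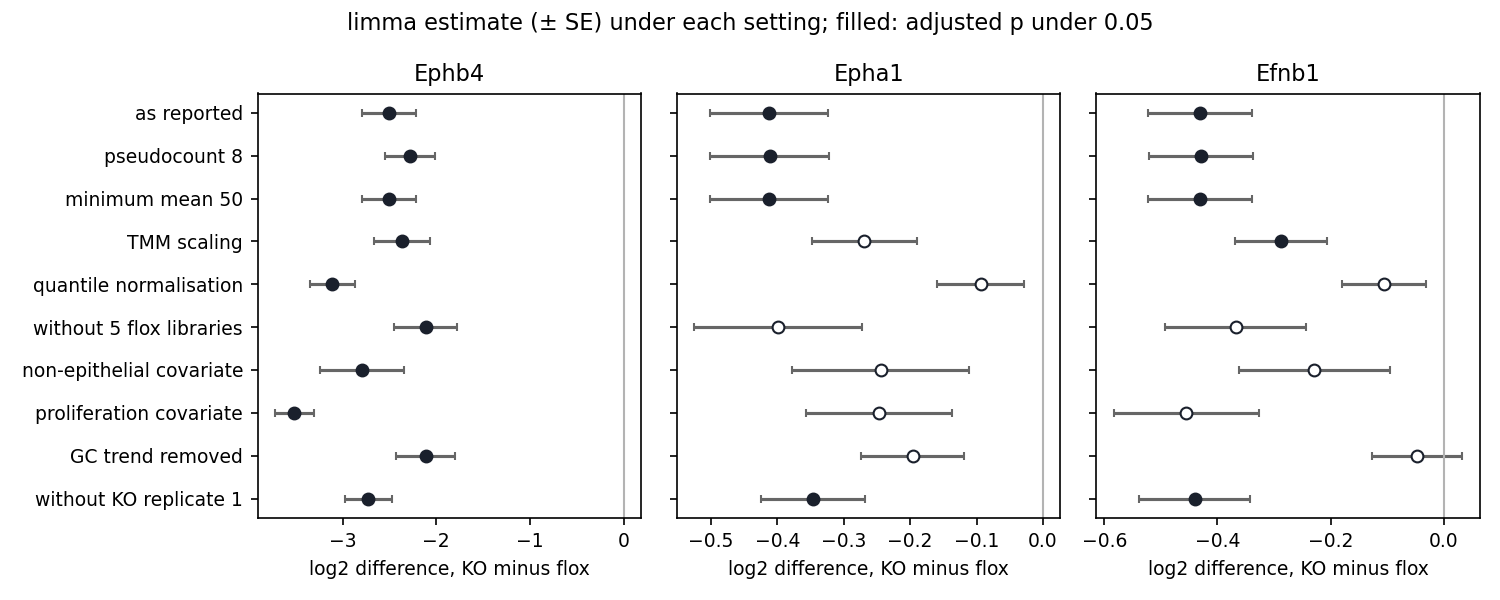
limma log2 difference, KO minus flox, with its SE (horizontal) for each member under 10 settings (1 per line); filled points have an adjusted p under 0.05 and open points do not. Ephb4 stays between -3.51 and -2.11, whereas Epha1 and Efnb1 are open under quantile normalisation, both covariates, removal of the GC trend and without 5 flox libraries, and Epha1 also under TMM scaling.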

How the data were processed

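Duodenal epithelium of 9 flox and 7 KO samples was sequenced. The submitters' processing notes name the aligner HISAT2 (2.0.5), the counter featureCounts (1.5.0-p3), DESeq2 (1.20.0) and the build GRCm38 (mm10), without settings. The deposited signal values are gene read counts that the authors divided by 1 size factor per library. All values (100%) were whole reads within 0.001 once multiplied back, and these reads served edgeR 4.0.16 and DESeq2 1.42.0, although the automatic test of this step left out KO replicates 1 and 3. The deposited log2 fold changes, p-values and adjusted p-values are the authors' own, and the largest adjusted p in the table is 0.0497.

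The two-sided main test was limma 3.58.1 (trend, robust) on log2(normalised count + 1), over 2339 genes whose mean reached 10. Benjamini-Hochberg adjustment covered 16488 genes, with unlisted genes given a p of 1. This scale understates changes of low genes. The limma, edgeR and DESeq2 fits were tested on simulated data. No libraries of a group were duplicates (smallest chi-square per degree of freedom 16.1). Folds are ratios of group means.

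Named genes were the members, listed genes of the 7 pathway lists, the 5 genes most and the 2 least like each member, and listed genes within 1 Mb. Some items that this rule names are not reported here. Members and lists were chosen with earlier results of these data known. The p-values measure the spread between samples, which may be technical in part.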

Additional observations from a re-analysis of the deposited data

Results flagged for a closer look

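KO replicate 1 held 84.7 normalised counts of Ephb4, and its gap to the next KO library was large for a group of 7 (0.773 of the range, against a limit of 0.568). It was the only flag among 14 groups of values examined, where chance gives about 1 in 20. The same library was the highest in the KO group for the proliferation level (8.30), the non-epithelial level (7.42) and Zan (110.8), and the lowest for Epha1 (1755).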

How the results depend on the processing

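Over 31 alternatives none of the 3 members changed sign. Leaving out each library in turn moved Ephb4 from -2.73 to -2.40, Epha1 from -0.48 to -0.35 and Efnb1 from -0.47 to -0.38, all still called (adjusted p up to 0.000636, 0.0355 and 0.0351), and all 3 of 3 family calls held. The number of listed genes called, 1269, ranged from 518 to 1458 in these fits, with 615, 838 and 646 without flox replicates 3, 4 and 10 and 645, 622 and 518 without KO replicates 1, 5 and 7. The labels do not say whether the replicate numbers pair the samples. Same-numbered deviations correlated from -0.43 to 0.37, and 1 of 6 correlated best with its own number. These correlations over listed genes cannot decide whether samples were paired. With the number as a replicate block the differences were -2.30, -0.48 and -0.40 (adjusted p = 0.0661, 0.0879 and 0.132), with 0 members and 9 listed genes called in limma; 1797 listed genes had an unadjusted p under 0.05. TMM scaling left Epha1 at -0.27 (adjusted p = 0.0527) and turned the split of calls from 820 lower and 449 higher to 189 lower and 723 higher. Quantile normalisation gave -0.094 for Epha1 and -0.11 for Efnb1 (adjusted p = 1 for both), with 1 member and 355 genes called. DESeq2 called 2112 genes.

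The other alternatives were chosen after seeing the data, and the cause was not tested for any lost call. Without the 5 flox libraries with pancreatic transcripts Epha1 and Efnb1 stood at -0.40 and -0.37, with 1 member and 11 genes called. With the non-epithelial level as a covariate they stood at -0.24 and -0.23, with 1 and 7 called, and with the proliferation level at -0.25 and -0.46 (adjusted p = 0.73 and 0.274), with 1 and 8 called. With the GC trend removed they stood at -0.20 and -0.046, with 1 and 359 called. Both levels and the GC trend came from listed genes alone, so they are tied to genotype by that choice. In edgeR without KO replicates 1 and 3 Epha1 stood at -0.33 (adjusted p = 0.0519), and 354 genes were called. Total depth is unknown, and with 25 to 37 reads of Ephb4 in 6 of the KO libraries the counting intervals of those libraries overlap.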
